A study of Mus musculus with 8 samples.

Results

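The cytosolic ribosomal protein genes are the genes whose symbol starts with Rpl or Rps followed by a digit, together with Rpsa, Rplp0, Rplp1 and Rplp2; the Rps6k kinases and processed pseudogenes were left out. The rule found 86 of the 19752 gene symbols matched on the array, and 83 of the 86 had a probe that could be measured. The measured members were 46 large-subunit genes, 30 small-subunit genes, 6 paralogs or retrogene copies of subunit genes, and Rps19bp1, which carries a ribosomal symbol but encodes a nucleolar protein that binds a subunit. Rpl10l, Rpl39l and Rpl3l, paralogs known from testis or muscle, were not well above background on any array. Liver RNA came from male C57BL/6 mice that were bought at 5 weeks of age and split into 4 groups of matched weight, with 2 mice and 2 arrays in each group. The normal diet (ND) held 4.8% fat, 50.21% carbohydrate and 20.78% protein at 3.8 kcal/g, and the high-fat diet (HFD) held 58% fat, 25.5% carbohydrate and 16.4% protein at 5.2 kcal/g. Mice ate one diet or the other freely for 3 or for 9 months, so the groups were ND 3 months, ND 9 months, HFD 3 months and HFD 9 months. The diets differed in carbohydrate and protein as well as in fat, and the labels name no genetic change.

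Each cytosolic ribosome is built from a small subunit, which decodes the messenger RNA, and a large subunit, which joins amino acids. Their proteins are made in matched amounts, and ribosomal protein messages are among the most abundant in liver. Most of these messages start with a short run of pyrimidines, the 5′ terminal oligopyrimidine (TOP) tract, through which mTOR signalling and the protein LARP1 set how strongly they are translated. That control acts on translation, which total RNA on an array does not measure.

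A level is given as the log2 signal relative to the array's 75th percentile, so a value of 0 is the brightness of that percentile. Levels of different genes come from different probes and were not compared with each other. The 75th percentile intensity was between 482 and 597 on the 4 ND arrays and between 185 and 428 on the 4 HFD arrays, lowest on HFD 9 months mouse 2, and no spot was saturated. The slide numbers in the file headers put the 4 ND arrays on the first slide and the 4 HFD arrays on the second, so diet and slide cannot be told apart. On both slides the 3-month arrays filled the first row and the 9-month arrays the second, so feeding time and row cannot be told apart either. The tissue label was checked against 10 hepatocyte markers, all of which were well above background on all 8 arrays. In whole liver RNA, fewer cells of a type and less RNA per cell cannot be told apart.

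With arrays scaled to the 75th percentile, ribosomal protein messages were highest in ND livers at 3 months and lowest in HFD livers at 3 months. The top of that order depended on the scaling. The median of the 83 members was 7.46 and 7.53 on the ND 3-month arrays, 7.27 and 7.16 on the ND 9-month arrays, 6.82 and 6.92 on the HFD 3-month arrays, and 7.08 and 7.42 on the HFD 9-month arrays. The pairs of the first 3 groups did not overlap with one another, whereas the HFD 9-month pair spanned the values of the ND 9-month pair. The median of all 20164 features lay between 0.50 and 0.56 on all arrays. Of the 83 members, 54 had their highest group mean in ND 3 months and 53 had their lowest in HFD 3 months. None had its lowest mean in ND 3 months, and 23 were highest in HFD 9 months. With quantile normalization, cyclic loess and the authors' value table HFD 9 months was instead the group in which most members were highest, with 49, 42 and 44 of the 83, against 19, 22 and 16 in ND 3 months. In the authors' value table the members' medians were 16.0 and 16.12 on ND 3 months and 16.16 and 16.12 on HFD 9 months. The mean of the 2 array medians was lowest in HFD 3 months under all 6 scalings, but with quantile normalization 35 members were lowest in ND 9 months and 32 in HFD 3 months. The 83 members made up between 3.17% and 4.11% of the summed linear signal of all features, with the lowest share on HFD 3 months mouse 1 and the highest on HFD 9 months mouse 2.

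**Figure D1:**
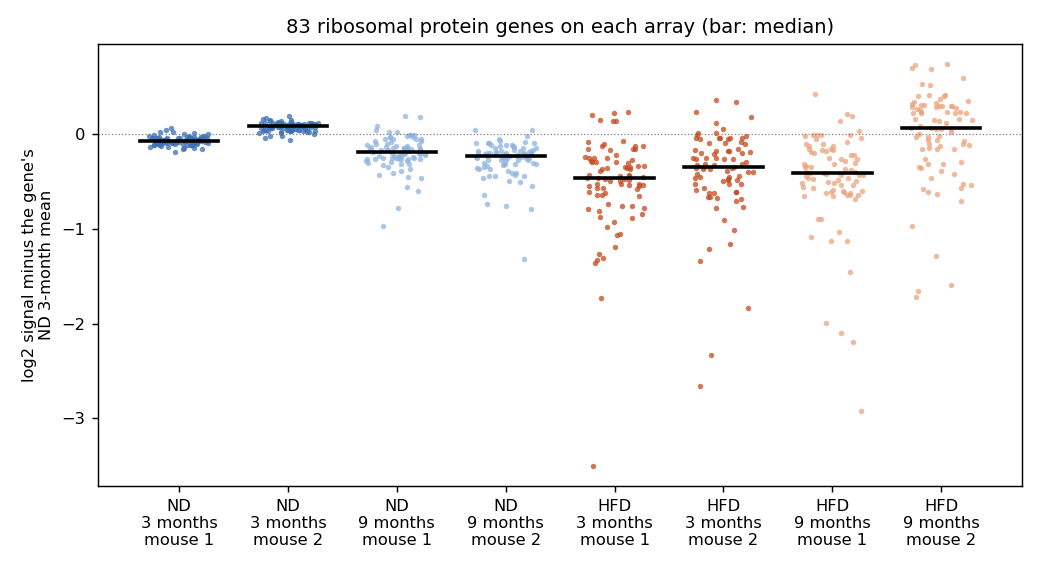
Each point is 1 of the 83 measured members on 1 array, as its log2 signal minus that gene's mean over both ND 3-month arrays; the black bar is the median of the array and colours mark the 4 groups. The ND points lie close together, the HFD 3-month medians lie below every ND median, and single points fall far below the rest on HFD arrays, such as Rps3 at a level of 2.52 on HFD 3 months mouse 1.

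Between HFD and ND at 3 months the members' median log2 difference was -0.43, against -0.0066 over all features. Of the 83 members 77 were below 0, and 65 (78.3%) had both HFD arrays below both ND arrays, which held for 35.4% of all features. Only 4 (4.82%) lay above on both arrays, against 35.6% of all features. The small subunit had a median of -0.47 with 29 of 30 genes below 0, and the large subunit a median of -0.41 with 43 of 46 below 0; both stayed negative under the other scalings, at their smallest -0.19 and -0.03. In the limma fit with Benjamini-Hochberg adjustment over all features, Rpl4 and Rpl28 were called lower at an adjusted p under 0.05, which is 2.41% of the members where 3.67% of all features were called lower. No member was called higher, against 1.51% of all features. The count of calls was thus no larger than in the background. An unadjusted limma p under 0.05 was reached by 17 of the 83 members, against 26.3% of all features. The median stayed negative under 5 other ways of scaling the arrays, but fell in size to -0.25 with cyclic loess, to -0.14 with quantile normalization and to -0.10 in the authors' value table. With quantile normalization 42.2% of the members had both HFD arrays below both ND arrays, against 32.9% of all features, and with the authors' own values 32.5% against 31.6%.

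Rpl4, a large-subunit protein with a long arm that reaches into the peptide exit tunnel, stood at 7.39 and 7.45 on the ND 3-month arrays and at 6.23 and 6.41 on the HFD 3-month arrays. Both HFD arrays were lower, by -1.10 ± 0.22 (log2 difference ± SE, 2 arrays against 2; 2.15-fold lower, limma adjusted p = 0.047). Rpl28, another large-subunit protein, stood at 6.69 and 6.70 on ND and at 5.90 and 5.48 on HFD. Its difference was -1.01 ± 0.20 (limma adjusted p = 0.0452), and it too did not overlap between the diets. Each was measured by 1 probe. Both kept their direction under every setting tried, but both calls ended with quantile normalization, with cyclic loess, with scaling to the median and with no filter on dim probes, and when any 1 of the 4 ND arrays or of the 2 HFD 3-month arrays was left out. The call of Rpl28 also ended in the authors' value table and with the replicate block. Rps6, the small-subunit protein phosphorylated by the S6 kinases, stood at 7.56 and 7.69 on ND and at 6.84 and 6.28 on HFD. Its difference of -1.06 ± 0.23 just missed the threshold (limma adjusted p = 0.052).

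The sequences around the annotated starts of a few such genes are shown because the TOP tract is the feature that ribosomal protein messages are known to share. They are from RefSeq on GRCm38.p6 and run from 10 bases before the annotated start to 20 bases after it, 5′ to 3′ on the gene's strand, and the capitals mark a run of 5 or more pyrimidines near the start.
Rpl28, chr7:4792955-4792984, plus strand: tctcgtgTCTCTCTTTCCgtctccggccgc
Rps6, chr4:86857348-86857377, minus strand: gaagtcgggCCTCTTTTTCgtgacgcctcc
Rpl7a, chr2:26910797-26910826, plus strand: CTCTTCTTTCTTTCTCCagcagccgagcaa
Rpl12, chr2:32961702-32961731, plus strand: agcaggatccgTCTTTTCggctttcggctc
Rps27, chr3:90213629-90213658, minus strand: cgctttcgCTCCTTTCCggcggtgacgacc
Rpl28, Rps6 and Rpl7a are members that lay lower on HFD at both times, whereas Rpl12 and Rps27 were among those with the largest differences between the feeding times. All 5 were chosen from the 34 members with such a run near a start in the table. Other members that lay lower on HFD at both times, such as Rpl24, Rplp0, Rps3a1, Rpl11 and Rpl13, had no such run there.

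The table of starts held 73 entries for 62 of the 83 members. A run of 5 or more pyrimidines that overlapped the stretch from 5 bases before to 5 bases after the annotated start was found at 36 of the 73 (49.3%), against 31.4% of the 32851 starts in the table. The letters CCGGAAG, the core that ETS family factors bind, were searched on both strands of the 300 bases and found at 35.6% of the members' starts and 8.86% of all starts. The letters AAGATGGC, the core that YY1 binds, were found in the same way at 11% of the members' starts and 2.75% of all starts. The first motif overlapped the pyrimidine run at 1 start, the second overlapped it at 1 start, and the motifs did not overlap each other at any member's start. These are matches of letters and show no binding.

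The 3 largest lower values at 3 months were those of Rps3, Rpl7a and Rpsa. Rpl7a was more than 1 log2 unit lower on both HFD arrays and lower with all of its probes. The value of Rps3 rested mostly on 1 array, and that of Rpsa rested on 1 array in large part. Rps3, a small-subunit protein at the messenger RNA entry site, stood at 5.91 and 6.13 on ND and at 2.52 and 5.70 on HFD, a difference of -1.91 ± 1.11 that did not pass the test (limma adjusted p = 0.317). Its second probe stood at 1.31 and 1.52 on ND and at 1.39 and 1.14 on HFD, a difference of -0.15. Rpsa, the laminin receptor protein of the small subunit, stood at 8.50 and 8.67 on ND and at 7.65 and 5.93 on HFD, and its difference of -1.80 ± 0.58 did not pass the test either (limma adjusted p = 0.12). Its 3 other kept probes gave -0.70, -0.09 and -0.21. In Rps3 most of the size of the difference therefore rested on 1 probe on 1 array. Without the lower HFD array the difference was -0.32 for Rps3 and still -0.93 for Rpsa. Of the 163 kept probes of members, 13 were at least 1 log2 unit lower on 1 array than on each of the 7 others, and all 13 of those arrays were HFD arrays (4 and 5 probes on the HFD 3-month arrays, 4 on HFD 9 months mouse 1). Over all kept probes such single low values were found for between 0.062% and 0.457% of probes on the ND arrays and for between 1.3% and 1.74% on the HFD arrays.

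Probes of the same gene gave a second view of the diet difference. Of 50 members with several kept probes, 39 had all probes lower on HFD at 3 months and 1 had all probes higher. The probes of a gene differed by a median of 0.54 (largest less smallest log2 difference) at 3 months and by 0.39 at 9 months, by 0.08 between the feeding times on ND and by 0.375 between them on HFD, both of these being comparisons within 1 slide. A range over 1 was found for 12, 8, 0 and 7 of the 50 members in the same order. The widest range was in Rpl17, a protein that lines the exit tunnel, whose 7 probes gave differences between -3.24 and -0.32 at 3 months. On ND the same 7 probes gave differences between the feeding times of -0.51 to -0.29.

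**Figure D2:**
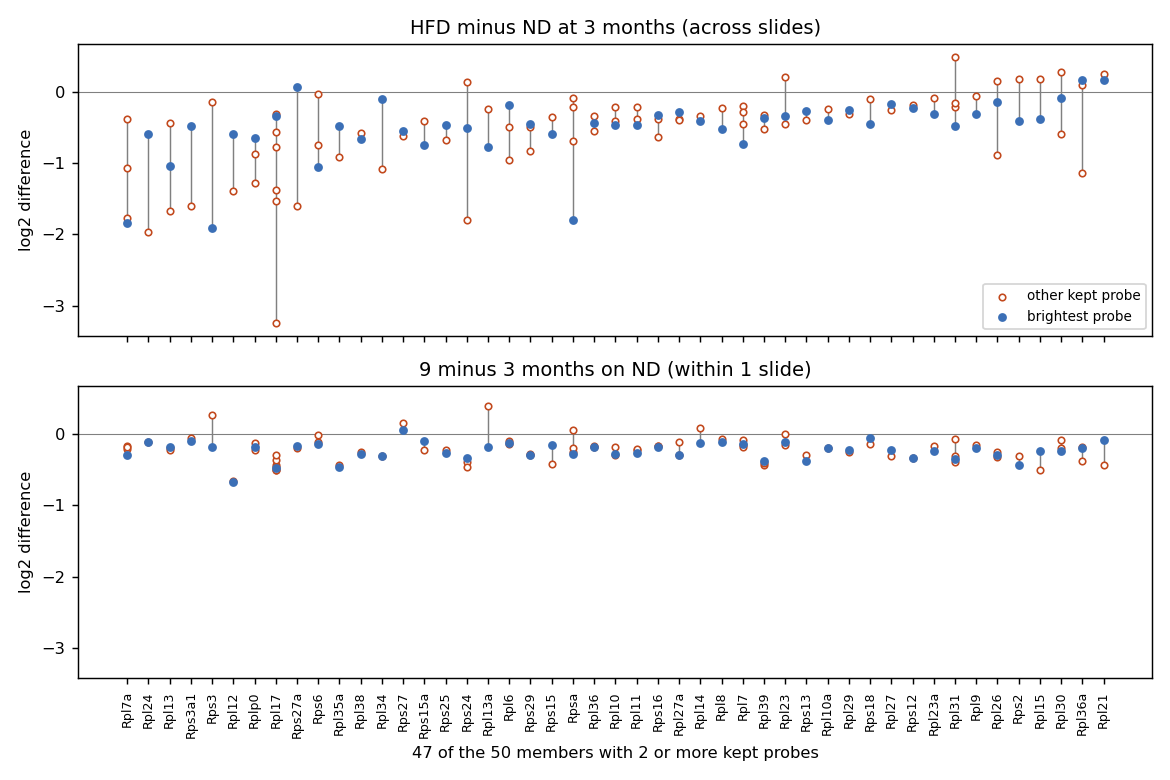
Log2 differences of every kept probe of 47 of the 50 members with several probes, HFD minus ND at 3 months above and 9 minus 3 months on ND below; filled points are the brightest probe, open points the other probes, and lines span the probes of a gene. Probes of a gene spread widely in the upper panel and little in the lower one (medians of 0.54 and 0.08 over the 50), with the longest line at Rpl17.

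At 9 months the members as a group no longer lay lower on HFD. Their median log2 difference was 0.10, against 0.017 over all features, with 52 members above 0 and 31 below. The median was positive under 4 of the 5 other scalings, between 0.04 and 0.20, and turned to -0.04 with normexp background correction. Both HFD arrays lay above both ND arrays for 18 members (21.7%, against 28.5% of all features) and below for 16 (19.3%, against 26.1%). limma called no member higher, where 3.56% of all features were called, and none lower, where 4.73% were called. Its unadjusted p was under 0.05 for 9 of the 83 members, against 28.7% of all features. The members with both HFD arrays on 1 side were thus no more frequent than among all features.

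The 9-month values depended on which HFD mouse was used. With arrays scaled to the 75th percentile, mouse 1 lay below mouse 2 by a median of 0.50 on the log2 scale over the 83 members. The median absolute difference within this pair was 0.51, against 0.15 within ND 3 months, 0.08 within ND 9 months and 0.15 within HFD 3 months. The members' medians on mouse 1 and mouse 2 kept this order with quantile normalization (15.99 and 16.16), cyclic loess (7.13 and 7.37) and normexp background correction (6.92 and 7.01). The order turned with scaling to the median (11.09 and 10.99) and in the authors' value table (16.16 and 16.12). At the 75th percentile scaling, the members' median diet difference was 0.34 without HFD 9 months mouse 1 and -0.16 without mouse 2. Mouse 2 was also the array with the lowest 75th percentile intensity.

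Several members stood apart from the group at 9 months. Rpl7a, a large-subunit protein, stood at 7.60 and 7.70 on ND and at 5.02 and 6.22 on HFD, a difference of -2.03 ± 0.47 (limma adjusted p = 0.0519). At 3 months it stood at 7.83 and 8.06 on ND and at 6.61 and 5.61 on HFD, a difference of -1.84 ± 0.47. All 4 of its probes were lower on HFD at both times, by -1.84 to -0.38 at 3 months and by -2.03 to -0.78 at 9 months. Rpl5, which carries 5S ribosomal RNA into the large subunit together with Rpl11, stood at 5.92 and 5.67 on ND 9 months and at 4.27 and 4.07 on HFD 9 months. Its difference of -1.63 ± 0.43 did not pass the test (limma adjusted p = 0.069). The HFD 3-month arrays of Rpl5 disagreed, at 4.37 and 5.74. Rpl11 differed by only -0.11 ± 0.17 at 9 months and by -0.47 ± 0.17 at 3 months.

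The clearest value in the other direction was Rps27a, which is made as a fusion with ubiquitin and gives both ubiquitin and a small-subunit protein. Its brightest probe stood at 7.92 and 7.87 on ND 9 months and at 8.48 and 8.76 on HFD 9 months, a difference of 0.73 ± 0.19 (limma adjusted p = 0.0699). It passed the threshold with quantile normalization (0.88, adjusted p = 0.0374), cyclic loess (0.74, adjusted p = 0.0496) and trended moderation (0.73, adjusted p = 0.0429), and the limma adjusted p lay between 0.0374 and 0.785 over its 14 other settings. Its second probe differed by -0.34, so the probes disagreed in direction. Rpl3, a large-subunit protein near the peptidyl transferase centre, stood at 5.54 and 5.21 on ND and at 5.87 and 5.89 on HFD, a difference of 0.51 ± 0.20 (limma adjusted p = 0.161). Rpl31, at the rim of the exit tunnel, differed by 0.64 ± 0.33 and Rpl12, a protein of the stalk base, by 0.48 ± 0.25; neither passed the test.

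**Figure D3:**
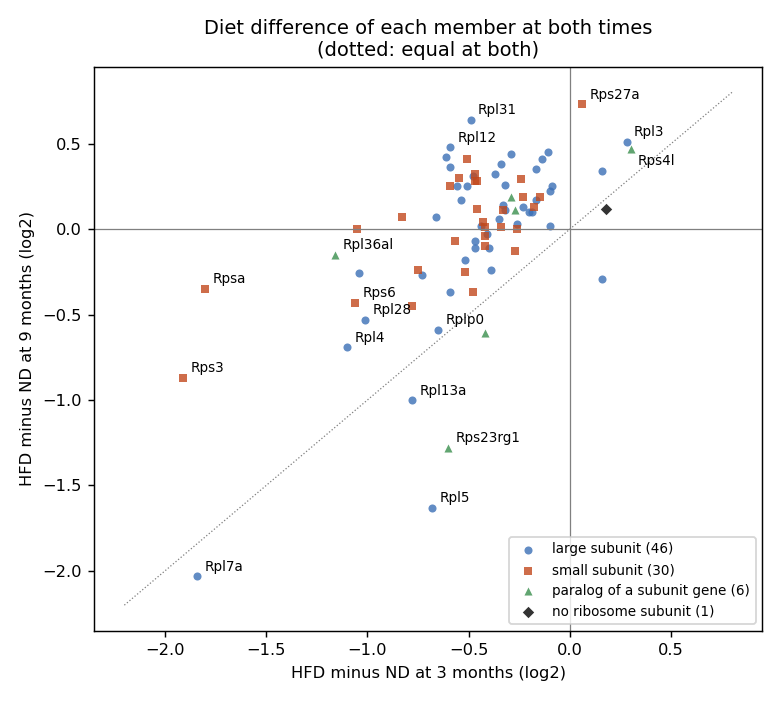
Log2 difference HFD minus ND of each measured member at 3 months (horizontal) and at 9 months (vertical), with a marker for each class and a dotted line where both are equal. Most points lie left of 0 and above the dotted line, Rpl7a lies far down at -1.84 and -2.03, and Rps27a at 0.06 and 0.73.

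With both feeding times pooled and time as a covariate, limma called 10 members lower on HFD (12% of the 83, against 11.8% of all features) and none higher (10.3% of all features). The share of calls equalled the background. The called members included Rpl4, Rpl5, Rpl7a, Rpl24, Rpl28 and the stalk protein Rplp0 of the large subunit, Rps3a1 and Rps6 of the small subunit, and the retrogene copy Rps23rg1. Rpl7a had the largest difference, -1.93 ± 0.31 (3.81-fold lower, limma adjusted p = 0.00767). Of the called members, Rpl4 and Rpl7a kept their call under all 13 other settings that the fit allowed and with each of the 8 arrays left out. When arrays were left out in turn, the call of Rpl28 ended without either ND 3-month mouse, and the calls of Rpl5, Rpl24, Rplp0, Rps3a1, Rps6 and Rps23rg1 ended without either of these and without 3 to 5 further arrays each. With no filter on dim probes all 7 of these calls ended too, and each except that of Rps23rg1 ended under 1 or more further settings. Among the members 13 lay below ND on all 4 HFD arrays (15.7%, against 14% of all features) and 1 above on all 4, Rpl36a (1.2%, against 11.5%). The members' median was -0.13, but it turned to 0.05 with quantile normalization and to 0.06 in the authors' value table. With the authors' values limma called 6 members lower and 7 higher, where 23.8% of all features were called in either direction. With quantile normalization it called 5 lower and 3 higher (22.4% of all features), and with cyclic loess 9 lower and 1 higher (21.8%).

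Rplp0, the scaffold of the acidic stalk that recruits elongation factors, is often used as a reference gene. Its brightest probe stood at 8.69 and 8.84 on ND 3 months, 8.60 and 8.55 on ND 9 months, 8.15 and 8.08 on HFD 3 months, and 7.63 and 8.34 on HFD 9 months. All 4 HFD values were below all 4 ND values. Its 3 probes were lower on HFD at both times, by -0.65, -0.87 and -1.28 at 3 months and by -0.59, -0.88 and -3.06 at 9 months. The pooled difference of the brightest probe was -0.62 ± 0.17 (limma adjusted p = 0.042), and the call ended with quantile normalization, with scaling to the median and with no filter on dim probes. The stalk proteins that Rplp0 anchors differed less at 3 months, Rplp1 by -0.56 ± 0.25 and Rplp2 by -0.23 ± 0.23, and lay above 0 at 9 months, at 0.25 ± 0.25 and 0.13 ± 0.23. Rplp2 turned to 0.11 at 3 months with quantile normalization.

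The other members of a panel chosen by role did not pass the test for the diet at either time. Rpl10, which joins the large subunit last, differed by -0.47 ± 0.21 at 3 months and -0.07 ± 0.21 at 9 months. Rpl23 and Rpl26, which like Rpl5 and Rpl11 are known to bind MDM2, differed by -0.35 ± 0.23 and -0.14 ± 0.23 at 3 months and by 0.06 ± 0.23 and 0.41 ± 0.23 at 9 months. Rpl13a, often used as a reference gene and known for a role in silencing inflammatory messages, differed by -0.78 ± 0.48 at 3 months and -1.0 ± 0.48 at 9 months. The size at 9 months of Rpl13a rested on HFD mouse 1, at 5.41, where HFD mouse 2 stood at 7.01 and the ND mice at 7.27 and 7.16. The second kept probe of Rpl13a, which was dimmer, differed by -0.24 at 3 months and by 0.04 at 9 months. Rps14, Rps18 and Rps19, small-subunit proteins of the head and platform, differed by -0.34 ± 0.34, -0.46 ± 0.23 and -0.26 ± 0.17 at 3 months and by 0.01 ± 0.34, 0.12 ± 0.23 and 0.00 ± 0.17 at 9 months. Rpl41, the smallest ribosomal protein, differed by -0.17 ± 0.31 at 3 months and 0.17 ± 0.31 at 9 months. With quantile normalization the 3-month differences of Rpl10, Rpl26, Rpl41 and Rps14 turned positive, between 0.03 and 0.17.

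On ND the messages were slightly lower at 9 than at 3 months across nearly the whole family. The members' median log2 difference was -0.20, against -0.075 over all features, and 80 of 83 were below 0. Both 9-month arrays lay below both 3-month arrays for 67 members (80.7%, against 37.1% of all features) and above for none (23.4%). The size of the median shrank to -0.07 with quantile normalization, -0.04 in the authors' value table and -0.02 with cyclic loess, and grew to -0.36 when arrays were scaled to the median. That last scaling also moved the median of all features to -0.23, a shift of over 0.1, and the members lay below it there as well. With cyclic loess 31.3% of the members lay below without overlap, against 30.1% of all features. limma called none of the 83 members in either direction, where 0.595% of all features were called lower and 0.441% higher. Its unadjusted p was under 0.05 for 5 members, against 15.9% of all features. Of the 50 members with several probes, 44 had all probes lower.

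The largest differences between the feeding times on ND were those of Rps4l at -0.88 ± 0.46, Rpl22l1 at -0.76 ± 0.23, Rpl12 at -0.68 ± 0.25, Rpl3 at -0.63 ± 0.20 and Rps23rg1 at -0.57 ± 0.32, none of which passed the test. Rpl12 stood at 7.19 and 7.34 at 3 months and at 6.66 and 6.50 at 9 months, and its second probe gave a like difference of -0.66. Rpl3 stood at 5.86 and 6.14 at 3 months and at 5.54 and 5.21 at 9 months. Neither gene overlapped between the feeding times. The values above 0 included Rps28 at 0.11 ± 0.27, Rpl5 at 0.07 ± 0.43 and Rps27 at 0.06 ± 0.36.

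On HFD the direction was the opposite. The members' median difference of 9 against 3 months was 0.25, against -0.0043 over all features, and 67 of 83 were above 0; that median was positive under the 5 other scalings, between 0.06 and 0.27. Both 9-month arrays lay above both 3-month arrays for 29 members (34.9%, against 21% of all features) and below for 7 (8.43%, against 23.3%). limma called no member higher or lower, where 0.00496% of all features were called in each direction. Its unadjusted p was under 0.05 for 5 of the 83 members, against 15.5% of all features. The small subunit had a median of 0.38 with 28 of 30 genes above 0, and the large subunit a median of 0.24 with 38 of 46 above 0. Without HFD 9 months mouse 2 the members' median was 0.05, and without mouse 1 it was 0.51. The largest positive differences were those of Rpsa, Rpl22, Rps20, Rps27 and Rps3, and in each except Rps27 one HFD 3-month array lay more than 1 log2 unit below the other. Rps27, the zinc-finger protein of the small subunit, stood at 6.73 and 7.62 at 3 months and at 7.70 and 8.45 at 9 months, a difference of 0.90 ± 0.36 (limma adjusted p = 0.316). The largest negative differences were those of Rps23rg1 at -1.24 ± 0.32 and Rpl5 at -0.88 ± 0.43.

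The diet difference at 9 months less that at 3 months had a median of 0.43 over the members, against 0.06 over all features, and was above 0 for 76 of 83 members, including 30 of 30 small-subunit genes. It stayed positive under the 5 other scalings, between 0.22 and 0.40. limma called no member and no feature for this difference (0% in either direction). Its unadjusted p was under 0.05 for 4 members, among them Rpl12, Rpl35a and Rps27a, against 7.62% of all features. The largest values were those of Rpsa at 1.45 ± 0.82, Rpl31 at 1.12 ± 0.47 and Rpl12 at 1.06 ± 0.35. The 3-month and 9-month comparisons share no array, though they share both slides. Of the 83 members 15 had both HFD arrays below both ND arrays at both times, a pattern found in 18.4% of all features, and 9 lay below at 3 months and above at 9 months, a pattern found in 2.13% of all features. None showed the opposite change, which was found in 2.03% of all features.

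By their median the 6 measured paralogs lay lower at 9 than at 3 months on both diets, at -0.53 on ND and -0.42 on HFD. Both medians were negative under all 6 scalings, and no paralog passed the test between the feeding times. On ND 80 of all 83 members were below 0 too. On HFD the paralog Rpl36al lay above 0, at 0.52. On HFD 5 of the 6 had both 9-month arrays below both 3-month arrays, which held for 23.3% of all features. None of the 30 small-subunit genes and 2 of the 46 large-subunit genes had this. This difference between the classes was not tested. Rps23rg1, a retrogene copy of Rps23, stood at 0.09 and 0.27 on ND 3 months, -0.79 and 0.01 on ND 9 months, -0.36 and -0.49 on HFD 3 months, and -1.92 and -1.41 on HFD 9 months. The parent gene Rps23 was not matched on the array and was not analysed here, so how far the probe reads its parent is unknown. Rpl7l1, a nucleolar relative of Rpl7, stood at 0.91 and 1.07, 0.62 and 0.62, 0.68 and 0.46, and 0.33 and -0.30 in the same order of groups. Rpl22l1, the paralog of Rpl22, stood at 5.49 and 5.79, 4.86 and 4.90, 5.11 and 5.60, and 5.04 and 5.10. Rps27l, a paralog of Rps27 known as a p53 target, stood at 7.53 and 7.66, 7.13 and 7.09, 7.34 and 7.30, and 7.13 and 7.30. Rpl7l1, Rpl22l1 and Rps27l did not overlap between the feeding times on either diet, although on HFD the nearest Rps27l values both round to 7.30.

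Rpl36al, the autosomal copy of X-linked Rpl36a, stood at 7.12 and 7.18 on ND 3 months and at 5.42 and 6.56 on HFD 3 months, a difference of -1.16 ± 0.39. The brightest probe of Rpl36a differed by 0.16 ± 0.16 and stood at 6.10 and 6.18 on ND and 6.28 and 6.32 on HFD. Its other kept probes differed by 0.09 and -1.14, so the dimmest went the way of Rpl36al. How far the probes of this near-identical pair share signal is unknown. Rps4l, annotated as a transcribed pseudogene, stood at 3.93 and 3.80, 3.43 and 2.54, 4.10 and 4.22, and 2.83 and 4.08 in the 4 groups in the same order, and its pairs at 9 months were wide. Rps19bp1 stayed between 2.79 and 3.10 on all 8 arrays.

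**Figure D4:**
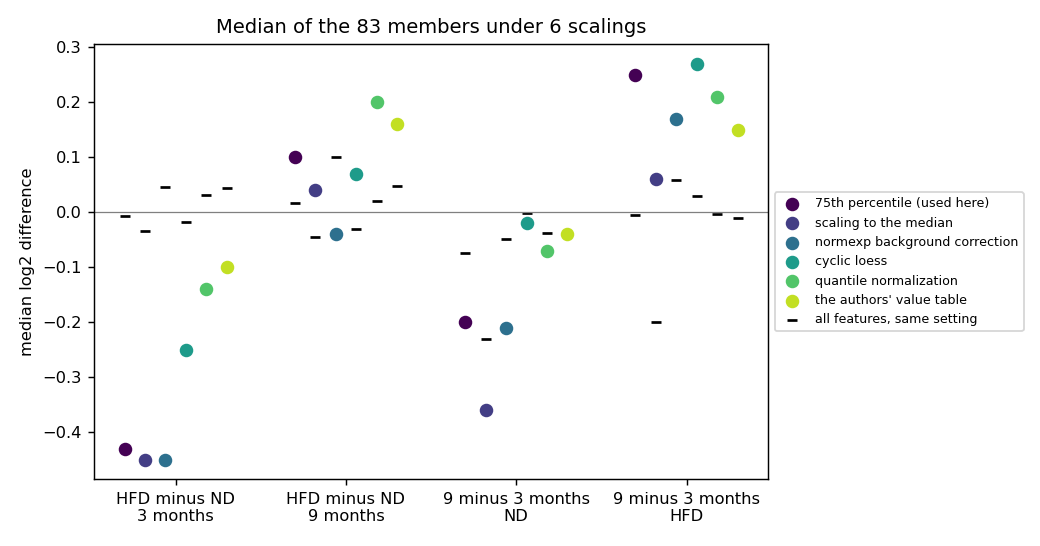
Median log2 difference of the 83 members in 4 comparisons under 6 scalings (coloured points), with the median of all features under the same setting (black dashes). The 3-month diet median lies below 0 under all 6 scalings but ranges from -0.45 to -0.10, and the 9-month diet median is below 0 only with normexp background correction, at -0.04.

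The sign of many single genes changed with the scaling, and at 9 months so did that of the members' median. Of the 83 members 45 were below 0 for the diet at 3 months under all 6 scalings and 4 above (Rpl3, Rpl21, Rpl36a and Rps19bp1). At 9 months 20 were below 0 and 34 above under all 6. The 20 members below 0 at both times under all 6 scalings included the called genes Rpl4, Rpl5, Rpl7a, Rpl24, Rpl28, Rplp0, Rps3a1, Rps6 and Rps23rg1. Between the feeding times on ND, 40 members were below 0 under all 6 scalings and none above; on HFD 47 were above and 13 below.

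Genes that work with the ribosome were taken from lists and described in the same way. Fau and Rack1 encode ribosome proteins under other symbols, and their differences were -0.52 ± 0.21 and -0.69 ± 0.29 at 3 months and -0.44 ± 0.21 and -0.17 ± 0.29 at 9 months. Fau stood at 8.74 and 8.91 on ND 3 months and at 8.37 and 8.24 on HFD 3 months, and Rack1 at 8.38 and 8.58 on ND and 8.05 and 7.54 on HFD. Neither overlapped between the diets at 3 months, and none of these differences passed the test. A list of 19 other genes with a TOP tract held translation factors and also genes of other roles, such as Vim, Hnrnpa1, Nap1l1 and Npm1. None of the 19 was called, where over both times 10.3% of all features were called higher and 11.8% lower. Their median was -0.12 at 3 months and 0.04 at 9 months, and each sign changed under at least 1 other scaling. Eef1a1, the elongation factor that delivers transfer RNA, stood at 8.53 and 8.72 on ND 3 months and at 7.75 and 7.95 on HFD 3 months, a difference of -0.77 ± 0.32. Eef2, which moves the ribosome along, differed by -0.12 ± 0.17.

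The genes that make ribosomes did not share the lower values. The 32 ribosome biogenesis genes had a median diet difference of 0.06 at 3 months and 0.13 at 9 months, and the 16 measured genes of RNA polymerase I and its factors 0.14 and 0.19; these medians were positive under all 6 scalings. Ncl, which encodes nucleolin, rose at 3 months by 0.95 ± 0.19 (limma adjusted p = 0.0479), from 4.14 and 3.86 on ND to 4.85 and 5.06 on HFD. Fbl, which encodes the methyltransferase fibrillarin, rose at 9 months by 1.13 ± 0.20 (limma adjusted p = 0.0278), from 2.95 and 2.99 on ND to 3.91 and 4.30 on HFD. These were the only biogenesis genes called at a single feeding time, where 1.51% of all features were called higher at 3 months and 3.56% at 9 months. Over both times Fbl and Nhp2, a protein of H/ACA particles, were called higher and Nob1, a nuclease that trims 18S ribosomal RNA, lower; Ubtf, the polymerase I factor, was called lower by -0.59 on the log2 scale. The 28 genes listed for initiation and elongation, which also held the release factors Etf1 and Gspt1, had medians of 0.05 and -0.04. The only one called was Eef2k, the kinase that inhibits Eef2, which was lower on ND at 9 than at 3 months (-1.95 ± 0.24, limma adjusted p = 0.031). In that comparison 0.595% of all features were called lower. Of 15 measured mTOR genes, the median was 0.00 at 3 months and -0.02 at 9 months, and Mlst8 and Tsc1 were called higher over both times, by 0.57 and 0.51. Over both times 10.3% of all features were called higher and 11.8% lower, and these lists were not tested as sets.

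Marker lists of liver cells were set beside these values. The 10 hepatocyte markers had a median of -0.61 at 3 months, with 9 of 10 below 0, and -0.26 at 9 months. Their summed signal on the log2 scale was 12.46 and 12.62 on ND 3 months, 12.35 and 12.35 on ND 9 months, 11.95 and 11.81 on HFD 3 months, and 11.86 and 12.51 on HFD 9 months. By this sum HFD 9 months mouse 2 was the highest of the HFD arrays, as it was for the median of the ribosomal protein genes at this scaling. The single markers were split. Alb, Ttr, Apoh, Fgb and Serpina1a were highest there among the HFD arrays, whereas Tat, Ass1 and Cps1 were lowest there, at 4.85, 7.74 and 3.55. Apoa1 was highest on HFD 3 months mouse 2. Alb, which encodes albumin, differed by -1.34 ± 0.35 at 3 months and Ttr, transthyretin, by -0.77 ± 0.29, whereas Apoa1, an apolipoprotein, differed by 0.23 ± 0.31; none passed the test. The 9 of 10 measured macrophage and Kupffer cell markers had medians of 1.69 and 0.12, with summed signals of 5.90 to 6.20 on ND 3 months, 7.01 to 8.69 on ND 9 months, 6.72 to 7.07 on HFD 3 months and 7.08 to 7.73 on HFD 9 months. At 3 months 8 of the 9 lay above 0, and Csf1r, the receptor of a macrophage growth factor, differed by -0.16 ± 0.39. At 9 months the 9 ranged from 0.78 ± 0.47 for the Kupffer cell lectin Clec4f to -2.58 ± 1.12 for the scavenger receptor Marco, with Timd4 at -1.19 ± 0.81 and Csf1r at -0.67 ± 0.39 also below 0. None of these 9 markers passed the test for the diet at either time. All 7 lipid-associated macrophage markers were measured, with medians of 1.68 and 2.5, and their summed signals were 3.24 to 3.25 on ND 3 months, 3.78 to 4.36 on ND 9 months, 3.99 to 4.30 on HFD 3 months and 5.82 to 5.95 on HFD 9 months. Cd9, the one with the smallest differences, stood at -0.36 ± 0.21 and 0.42 ± 0.21. Trem2, a receptor of such macrophages, rose by 2.62 ± 0.34 at 3 months (limma adjusted p = 0.018) and by 4.41 ± 0.34 at 9 months (limma adjusted p = 0.0056). The part that cell makeup had in the values of the ribosomal protein genes was not tested.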

How the data were processed

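Liver RNA of 8 mice was labelled with Cy3 from 0.5 µg and hybridised to 1-colour Agilent arrays, read with Agilent Feature Extraction 10.7.1.1 per the submitters' processing notes. The deposited processed signal and the median signals of spot and background are intensity values; per the file headers the processed signal was background-subtracted by the authors' software. The deposited value table holds log2 values of the authors, whose ranks on each array equal those of its median signals (rho of 1) and which share a column median of 7.14; how it was scaled is not given in the sources used here. The deposited spot flags are other values (0 or 1).

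The 3671 control spots and spots with an outlier flag were left out. The 59305 other processed signals were divided by the 75th percentile of their array and put on the log2 scale (pseudocount 0). A probe was kept (25800 of 55681) when it was well above background in a share of at least 0.5 of its spots on both arrays of 1 group. Names came from array accessions through RefSeq's gene table of GRCm38.p6 (26056 probes matched), and the kept probe with the highest mean stood for a gene, which gave 20164 features. limma 3.58.1 (R 4.3.3) fitted group means (4 residual and 2.33 prior degrees of freedom) or diet with time as a covariate (5 and 2.40), with moderated tests and Benjamini-Hochberg adjustment over all features. Per the labels the arrays hold separate mice, so 2 per group set the precision. Named genes were the called members, the 5 largest differences each way, a panel by role, all paralogs, called genes of other lists and 5 liver markers. The members, the panel and the lists were chosen with earlier results of these data known. Mouse numbers do not pair the groups. A few members are not reported here. The scripts were tested on simulated data.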

Additional observations from a re-analysis of the deposited data

Results flagged for a closer look

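Rpl12, Rpl26, Rpl27, Rpl27a, Rpl31, Rps24 and Rps27l had both HFD arrays below both ND arrays at 3 months and above them at 9 months, so every array of one feeding time moved against every array of the other. The diet difference at 9 months less that at 3 months was 1.06 ± 0.35 (SE) for Rpl12, 1.12 ± 0.47 for Rpl31, 0.93 ± 0.40 for Rps24 and 0.73 ± 0.32 for Rpl27a. It was 0.55 for Rpl26, 0.51 for Rpl27 and 0.38 for Rps27l. The limma test of that difference called none of these (adjusted p between 0.571 and 0.741), and the same pattern was found in 2.13% of all features. These values are those of the brightest probe, and other kept probes of some of these genes were not higher at 9 months. The second probe of Rpl12 differed by -0.35 at 9 months, that of Rpl27 by -0.04, 1 of the 2 others of Rps24 by -0.90, and the others of Rpl27a by -0.01 and -0.16. The other probes of Rpl26 and Rpl31 were higher at 9 months, but 1 of each was also higher at 3 months, by 0.15 and 0.48. Rps27l had 1 probe. Such a pattern was shown by 9 members in all. The number was 2 when arrays were scaled to the median, where 1.08% of all features showed it. It was 3 in the authors' value table (1.9% of all features) and 8 with cyclic loess (1.8%). It was 11 with quantile normalization (1.84%) and 13 with normexp background correction (2.27%). The genes changed with the setting. Of those named, the pattern was shown by Rpl12 and Rpl27a when arrays were scaled to the median, by Rpl27a in the authors' value table, by Rpl12 and Rps27l with cyclic loess, by Rpl12 with quantile normalization, and by Rpl12, Rpl26, Rpl27 and Rps24 with normexp background correction. Rpl31 showed it under none of these 5 scalings.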

How the results depend on the processing

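The members' median diet difference at 3 months kept its sign in all settings, but it was -0.14 with quantile normalization, -0.25 with cyclic loess and -0.10 in the authors' value table. At 9 months it turned to -0.04 with normexp background correction. Pooled over both times it was 0.05 with quantile normalization, 0.06 in the authors' value table and -0.28 with array weights. The difference between the feeding times on ND was -0.02 with cyclic loess, -0.04 in the authors' value table and -0.36 with scaling to the median, and on HFD it was 0.06 with that scaling. The diet difference at 9 months less that at 3 months was 0.28 with quantile normalization, 0.26 with cyclic loess and 0.22 in the authors' value table.

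The numbers of members called follow, with the share of all features called under the same setting in brackets as a percentage. At 3 months (2) it was 0 with quantile normalization (4.45%), 0 with cyclic loess (5.03%) and 0 with no filter on dim probes (0.183%). It was 1 with scaling to the median (5.81%) and 1 in the authors' value table (6.21%). It was 6 with normexp background correction (6.27%) and 5 with trended and robust moderation (6.15%). With only the probes above background on every array it was 4 (5.91%), and with array weights 13 (19.7%). At 9 months (0) it was 2 with quantile normalization (9.35%), cyclic loess (8.83%), scaling to the median (6.82%) and only those probes (9.4%). It was 3 with normexp background correction (9.02%), in the authors' value table (11.3%) and with trended moderation (9.84%). With the mean of kept probes it was 1 (7.83%). Pooled over both times (10) it was 4 with scaling to the median (15.7%) and 16 with normexp background correction (21.8%). It was 2 with no filter (6.43%) and 19 with array weights (31.7%). With 2 alternatives chosen after seeing the data, the median of kept probes and the removal of probes low on 1 array, 4 members were called at 3 months and 1 at 9 months in each. The shares of all features called were 5.16% and 6.9% at 3 months and 7.79% and 10.1% at 9 months.

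With mouse numbers as a replicate block, 1 member was called at 3 months, 0 at 9 months and 8 over both times. Of all features 3.98%, 6.73% and 20.8% were called in the same order. Deviations of same-numbered arrays correlated between -0.02 and 0.14, so the numbers were not taken to pair the mice.

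Leaving out 1 array at a time gave 0 to 7 called members at 3 months, 0 to 4 at 9 months and 2 to 22 over both times, and 0 to 4 between the feeding times on HFD. The members' median then ranged from -0.16 to 0.34 for the diet at 9 months, from -0.31 to -0.06 over both times, from 0.05 to 0.51 between the times on HFD, and from 0.23 to 0.69 for the diet difference at 9 months less that at 3 months. The share of all features called also changed with the array left out, so the counts of called members do not describe the members alone. Over both times that share was 9.13% and 10.3% in the fits that called 2 members, and 29.5% in the fit that called 22. An arm left with 1 array was assumed to vary like the other groups. No spot was saturated, so leaving out saturated spots gave no values. The pooled comparison and the diet difference at 9 months less that at 3 months take in all 4 groups, so a fit on only the groups compared was no separate alternative for them. None of the called members changed direction in any setting.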
